A study of Mus musculus with 12 samples.

Results

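Oxidative phosphorylation was examined as the set of subunit genes of the respiratory chain and the ATP synthase, in RNA of mouse cerebellum that the series title narrows to the lobule crus 1. The members were every protein-coding gene whose symbol names a subunit of complex I (Nduf), II (Sdh), III (Uqcr, Cyc1), IV (Cox4 to Cox8) or V (Atp5), together with the 13 protein genes of mitochondrial DNA. The rule read symbols only, but it was set with earlier results of these data known. It gave 99 gene IDs of the 57010 in the table, 86 encoded in the nucleus (37 of complex I, 4 of II, 9 of III, 18 of IV, 18 of V) and 13 in the mitochondrion (7 of complex I, 1 of III, 3 of IV, 2 of V).

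Bulk RNA sequencing gave 12 libraries in 3 groups of 4. The groups were Fmr1 knockout mice injected with poly(I:C) into the peritoneal cavity, Fmr1 knockout mice given saline (called sham in the sample titles), and FVB mice given saline. FVB is the inbred strain the study names as background, the Fmr1 knockout models fragile X syndrome, and poly(I:C) imitates viral double-stranded RNA and sets off an immune response. None of the 12 libraries is of FVB mice given poly(I:C), so no comparison separates the response to poly(I:C) by genotype. The labels give no age, sex, knockout allele or time from injection to sampling. They do not state that each library came from its own animal, and the p-values reflect only how these libraries vary.

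Oxidative phosphorylation passes electrons from NADH and succinate through complexes I to IV to oxygen, pumps protons across the inner mitochondrial membrane, and lets complex V use the gradient to make ATP. Complexes I, III, IV and V are built from subunits of both genomes, so nuclear and mitochondrial transcripts have to be supplied together, while complex II is wholly nuclear. Neurons, and Purkinje cells of the cerebellum among them, depend heavily on this pathway for their ATP.

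Libraries held 35155420 to 56390207 counts, and 19166 genes were tested with edgeR's quasi-likelihood model. Fmr1, which checks the genotype labels, averaged 34.6 ± 0.98 CPM (read counts scaled to a common library size) in poly(I:C) knockouts, 31.7 ± 4.16 CPM in saline knockouts and 95 ± 9.41 CPM in FVB (SD, n = 4 each). It was lower in saline knockouts than in FVB (log2 fold change −1.58, SE 0.09, adjusted p = 8.7e-09), and reads were still assigned to it in every knockout library. All 8 markers of Purkinje cells and all 8 of granule cells were detected. Ttr, the defining transcript of choroid plexus epithelium, stood at 2167 and 2631 CPM in poly(I:C) knockouts 2 and 3 and at 4156 CPM in saline knockout 2, against 65.3 CPM or less in the other 9 libraries. The 10 choroid plexus markers summed to 24.5 to 2858 CPM in poly(I:C) knockouts, 37.2 to 4482 CPM in saline knockouts and 35.8 to 99.3 CPM in FVB. Their part in the results was not tested beyond leaving those 3 libraries out.

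The nuclear members together took a nearly constant share of each library. They held 1.29, 1.28, 1.15 and 1.25% of all counts in poly(I:C) knockouts 1 to 4, 1.20, 1.21, 1.29 and 1.31% in saline knockouts 1 to 4, and 1.24, 1.33, 1.24 and 1.24% in FVB 1 to 4. Poly(I:C) knockout 3 was lowest and FVB 2 highest, and all 3 groups overlapped. The group shares were 1.24 ± 0.066% in poly(I:C) knockouts, 1.25 ± 0.055% in saline knockouts and 1.26 ± 0.047% in FVB (SD, n = 4 each).

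The 13 mitochondrial members held more of each library and varied more between libraries. They took 4.99, 4.59, 4.33 and 5.23% of the counts in poly(I:C) knockouts 1 to 4, 4.71, 4.75, 3.89 and 4.77% in saline knockouts 1 to 4, and 4.52, 4.00, 4.22 and 5.44% in FVB 1 to 4. The highest and the next to lowest share were both in FVB, so the groups overlapped throughout. Group means were 4.79 ± 0.40%, 4.53 ± 0.43% and 4.54 ± 0.63% in poly(I:C) knockouts, saline knockouts and FVB (SD, n = 4 each). The mitochondrial counts were 3.59 to 4.19 times the nuclear counts in poly(I:C) knockouts, 3.03 to 3.94 times in saline knockouts and 3.00 to 4.38 times in FVB. These totals count assigned reads. Of the 13 mitochondrial members, 6 from a stretch copied on chromosome 1 held 0.85% of the summed mitochondrial CPM. In bulk RNA a lower level per cell and fewer cells of a type cannot be told apart, which holds for all levels reported here.

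**Figure D1:**
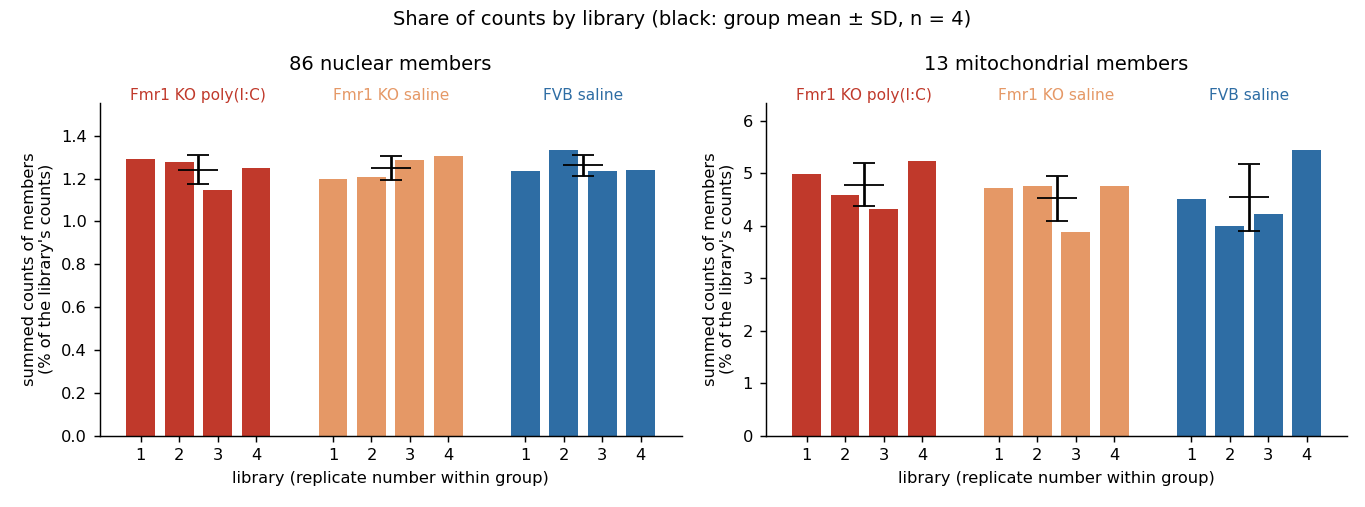
Bars give the summed counts of the 86 nuclear members (left) and the 13 mitochondrial members (right) as a percentage of all counts in each of the 12 libraries, with the group mean and SD in black (n = 4). The nuclear share lies between 1.15 and 1.33% and the mitochondrial share between 3.89 and 5.44%, and the groups overlap in both panels.

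Within groups the same difference was seen gene by gene. The SD of log2 CPM within groups had a median of 0.12 over the 84 tested nuclear members and 0.21 over the 13 mitochondrial members, beside 0.18 over all 19166 genes tested. Only 14 of 84 nuclear members but 11 of 13 mitochondrial members lay above that median of all genes. These are descriptions of the libraries and carry no test.

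Among the nuclear members, levels per kilobase of transcript (CPM per kb, averaged over the 12 libraries) ran from 0.27 to 902 CPM per kb. Atp5b, the catalytic beta subunit of the ATP synthase, was highest at 902 CPM per kb, and Atp5s, a coupling factor, was lowest of complex V at 10.2 CPM per kb. In complex IV, Cox4i1, the ubiquitous form of subunit 4, led with 649 CPM per kb. In complex III, Uqcrh, the hinge protein, led with 374 CPM per kb, and Uqcrfs1, the Rieske iron-sulfur protein, was lowest at 77.4 CPM per kb. In complex II, Sdha, the flavoprotein that oxidizes succinate, was at 193 CPM per kb and its membrane anchor Sdhc at 40.1 CPM per kb. In complex I the top was Ndufa4 at 606 CPM per kb, a protein first assigned to complex I and now placed in complex IV, and the bottom was Ndufa4l2 at 3.17 CPM per kb. Median levels of the nuclear members were 79.8, 91.9, 144, 149 and 196 CPM per kb for complexes I, II, III, IV and V.

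For subunits that exist as several isoforms, the general form was well above the tissue-specific form. Cox6a1 was at 484 CPM per kb and Cox6a2, the heart and skeletal muscle form, at 0.27 CPM per kb. Cox7a2 was at 171 CPM per kb and Cox7a1, another heart and muscle form, at 5.28 CPM per kb, with Cox7a2l, which takes part in supercomplexes of the chain, at 81.1 CPM per kb. Cox8a was at 566 CPM per kb and Cox8b at 0.89 CPM per kb. Cox8c had 0 counts over all 12 libraries, which allows up to 0.0058 CPM by counting error alone. Cox4i1 at 649 CPM per kb stood over Cox4i2, a form known from lung and from low oxygen, at 4.65 CPM per kb. Cox6b1 was at 352 CPM per kb and Cox6b2, known from testis, at 16.8 CPM per kb, and Cox7b was at 149 and Cox7b2 at 2.01 CPM per kb. Subunit c of the ATP synthase, which forms its rotating ring, is encoded by 3 genes for 1 mature protein, and all 3 were present: Atp5g3 at 358, Atp5g1 at 227 and Atp5g2 at 180 CPM per kb. All nuclear levels are likewise levels of assigned reads. Near-identical copies elsewhere held 23.8% of the counts summed over gene and copies for Atp5g1, and 35.4% for Cox7a2l. Besides Cox8c, a second Atp5o ID without counts was left untested, so 97 members were tested.

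The 13 mitochondrial members fell into 2 sets by level. The 7 in the first set lay between 1550 and 13539 CPM per kb and made up 99.2% of the summed mitochondrial CPM. mt-Co1, the catalytic subunit of complex IV, was highest at 20917 CPM and alone held 42.8 to 47.0% of a library's mitochondrial member counts. mt-Cytb, the complex III subunit that carries both quinone sites, averaged 7076 CPM. The complex I subunits mt-Nd1, mt-Nd2, mt-Nd5, mt-Nd4 and mt-Nd6 averaged 5951, 4496, 3551, 3064 and 805 CPM. The other 6, mt-Co2, mt-Co3, mt-Atp6, mt-Nd4l, mt-Atp8 and mt-Nd3, lay between 15.6 and 238 CPM per kb and averaged 163, 129, 72.1, 16.2, 5.73 and 5.44 CPM.

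These 6 genes are neighbours on the mitochondrial genome, between mt-Co1 and mt-Nd4. In the annotation of build GRCm38 a block of chromosome 1, chr1:24611535-24616197, 4663 bases long, carries 7 annotated gene copies in the same order. The copies of mt-Co2, mt-Co3, mt-Atp6 and mt-Nd4l aligned at 100% identity over 681, 783, 678 and 294 bases, and that of mt-Nd3 at 99.7% over 345 bases with 1 mismatch. mt-Atp8 lies between copied genes, with no annotated copy of its own. Parts of mt-Co1 and mt-Nd4 are in the block too, over 31.3 and 63.6% of their length, and both kept high counts. How the authors counted reads that match both places is not stated in the labels, and its part in these low counts was not tested. The levels of the 6 are therefore levels of reads assigned to them, not of the transcripts. The mitochondrial totals, their ratio to the nuclear counts and the share of mt-Co1 rest on the same assigned reads.

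The start of mt-Atp6 and of its copy Gm10925 shows how alike they are, since no letter differs. The start of mt-Nd3 and of its copy Gm28438 holds the 1 mismatch, T3C, in capitals, counted from 1 at the first base of the start codon. In build GRCm38 these are chrM:7927-7975 (plus strand), chr1:24614603-24614651 (minus strand), chrM:9459-9485 (plus strand) and chr1:24613093-24613119 (minus strand), all coding sequence in the mitochondrial genes.
mt-Atp6: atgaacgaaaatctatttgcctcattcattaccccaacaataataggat
Gm10925: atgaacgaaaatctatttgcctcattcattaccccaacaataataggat
mt-Nd3: atTaacctgtacactgttatcttcatt
Gm28438: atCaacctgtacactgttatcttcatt

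Counts assigned to the copy exceeded those of the gene for mt-Nd3. Gm28438 had 57.9, 54.9, 47.3 and 68.3 CPM in poly(I:C) knockouts 1 to 4, 59.2, 67.2, 47.9 and 54.1 CPM in saline knockouts 1 to 4, and 56.2, 56.6, 41.6 and 62.9 CPM in FVB 1 to 4. mt-Nd3 itself had 4.70, 2.91, 15.1 and 4.64 CPM in poly(I:C) knockouts, 4.67, 5.59, 3.92 and 4.78 CPM in saline knockouts, and 4.58, 4.93, 4.38 and 5.08 CPM in FVB. Poly(I:C) knockout 3 was the only library above 6 CPM. The copy held 91.3% of the pair's summed CPM, and the within-group SD of log2 CPM was 0.20 for the sum and 0.59 for mt-Nd3 alone.

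**Figure D2:**
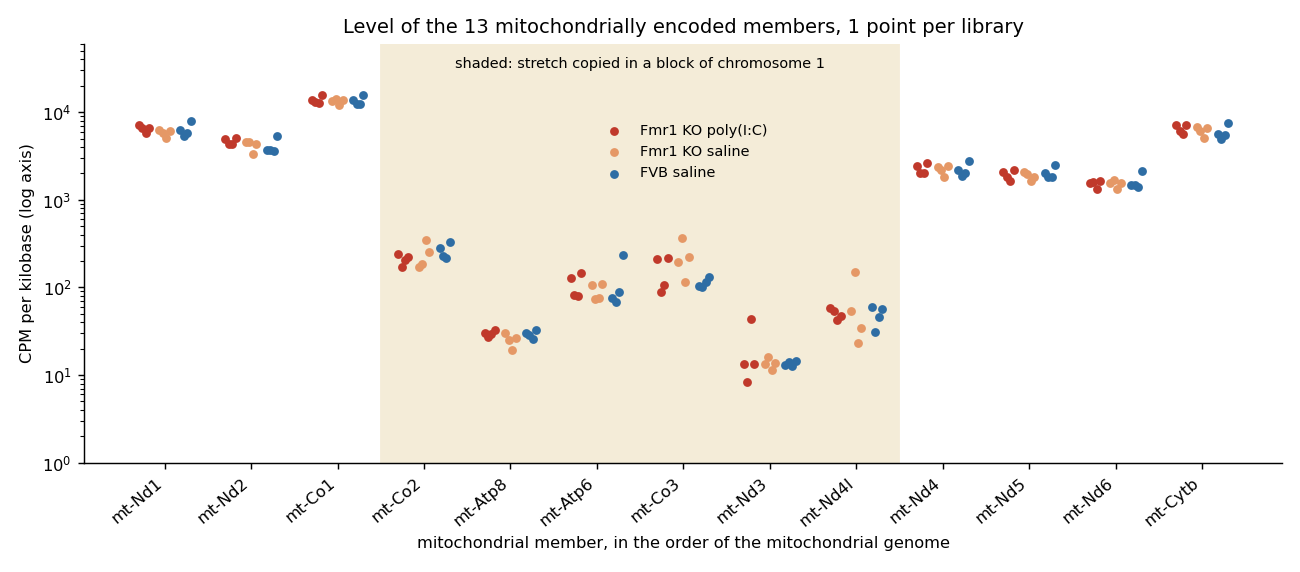
Points give the CPM per kilobase (log axis) of each mitochondrial member in each of the 12 libraries, in the order of the mitochondrial genome and coloured by group. The 6 members in the shaded stretch lie far below the 7 outside it, and the 3 groups overlap for every member.

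Genotype was compared between saline knockouts and saline FVB mice. No member changed at an adjusted p under 0.05: 0 of 84 nuclear and 0 of 13 mitochondrial members, beside 294 of the 19166 genes tested, or 1.53% (0.814% higher and 0.72% lower). DESeq2 also called 0 members. At an unadjusted p under 0.05 there were 1 nuclear member (Ndufs5) and 1 mitochondrial member (mt-Co3), beside 12% of all genes. The log2 fold changes of nuclear members had a median of 0.01 and those of mitochondrial members −0.01, beside 0.00 over all genes. With single libraries left out these medians ranged over −0.01 to 0.04 and −0.08 to 0.07, so their signs turned. They were positive for 45 of 84 nuclear and 5 of 13 mitochondrial members, beside 50.9% of all genes. The 95% interval lay within a 1.5-fold change in both directions for 76 of 84 nuclear members and 8 of 13 mitochondrial members, beside 62.4% of all genes. Only Atp5l, subunit g of the ATP synthase, had groups that did not overlap, with a log2 fold change of 0.10 (SE 0.07, adjusted p = 0.60), beside 7.02% of all genes.

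The nuclear member with the smallest p was Ndufs5, an accessory subunit of complex I on chromosome 4. Ndufs5 had 61.0, 18.7, 12.7 and 16.7 CPM in poly(I:C) knockouts 1 to 4 and 54.8, 51.2, 17.3 and 55.2 CPM in saline knockouts 1 to 4, against 14.3, 19.5, 17.1 and 15 CPM in FVB 1 to 4. So 4 libraries, 3 of saline knockouts and 1 of poly(I:C) knockouts, stood above 50 CPM, and the other 8 at 19.5 CPM or less. The log2 fold change in saline knockouts over FVB was 1.44 (SE 0.55, adjusted p = 0.32). Uqcr10, a small subunit of complex III, came next in p at 0.13 (SE 0.06, adjusted p = 0.42). Cox5a, Cox6a1 and Cox7a2l followed at −0.46, −0.23 and 0.19 on the log2 scale (adjusted p = 0.44, 0.49 and 0.48).

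The libraries high in Ndufs5 were low in its near-identical copy BC002163, a processed pseudogene on chromosome 16 that aligns with Ndufs5 at 99.4% over 319 bases with 2 mismatches. BC002163 had 44.2, 85.1, 78.6 and 81.3 CPM in poly(I:C) knockouts 1 to 4 and 43.9, 38.2, 80.1 and 41.4 CPM in saline knockouts 1 to 4, against 75.7, 80.9, 76.7 and 86.1 CPM in FVB 1 to 4. The same 4 libraries were the low ones. The sum of Ndufs5 and BC002163 was 105, 104, 91.3 and 98 CPM in poly(I:C) knockouts and 98.8, 89.5, 97.4 and 96.6 CPM in saline knockouts, against 89.97, 100.4, 93.8 and 101 CPM in FVB. The within-group SD of log2 CPM was 0.08 for the sum and 0.75 for Ndufs5 alone, and the log2 fold change of the sum in saline knockouts over FVB was −0.01 (SE 0.06, adjusted p = 0.98). Which of the 2 loci gave rise to the reads in each library was not tested.

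A stretch of the coding sequence that carries both mismatches shows how little separates the pair. It lies in build GRCm38 at chr4:123715951-123716023 (minus strand) and chr16:42955687-42955759 (plus strand). The capitals mark the substitutions T81C and A105G, counted from the A of the start codon of Ndufs5.
Ndufs5: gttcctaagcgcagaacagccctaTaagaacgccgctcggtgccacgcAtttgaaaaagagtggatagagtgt
BC002163: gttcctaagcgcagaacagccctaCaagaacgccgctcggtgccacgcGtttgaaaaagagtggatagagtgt

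**Figure D3:**
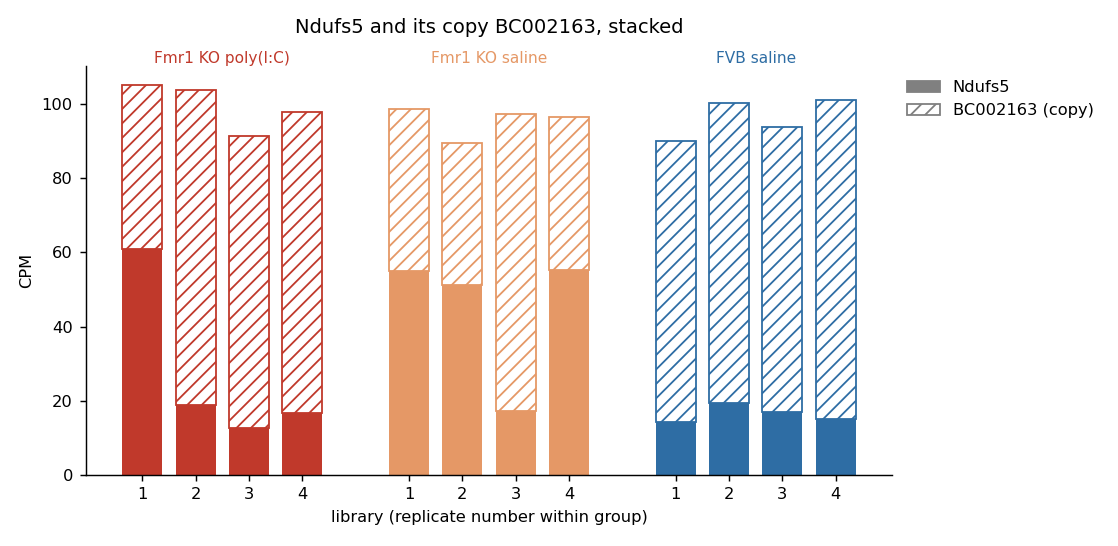
Filled bars give the CPM of Ndufs5 and hatched bars stacked on them the CPM of its copy BC002163 in each of the 12 libraries. The 4 libraries with Ndufs5 above 50 CPM have the least BC002163, and the total height stays between 89.5 and 105 CPM.

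Copies of this kind were found at 95% identity or more over at least 150 bases. They concerned 24 nuclear gene IDs, both IDs of Atp5o among them, and 9 mitochondrial members. For Cox7a2l the within-group SD was 0.06 for its sum with the pseudogene Gm6969 of chromosome 12, and 0.17 for Cox7a2l alone. Poly(I:C) knockout 4 and saline knockout 2 were highest in Cox7a2l, at 109 and 106 CPM, and lowest in Gm6969, at 26.1 and 24.8 CPM. Atp5o, the oligomycin-sensitivity subunit that joins the outer stalk of the ATP synthase to its head, had no such counterpart in its copy. The pseudogene Gm5436 of chromosome 12 had 13.3, 12.4, 16.5 and 12.8 CPM in poly(I:C) knockouts 1 to 4 and 13.6, 13.9, 3.72 and 5.54 CPM in saline knockouts 1 to 4, against 19.8, 25.4, 22.7 and 22.5 CPM in FVB 1 to 4. All 8 knockout libraries lay below all 4 FVB libraries for this copy, which was picked after its values were seen. Over all genes tested, groups did not overlap for 7.02% in the genotype comparison and 14.2% for poly(I:C) knockouts against FVB. Which locus gave rise to the reads of Gm5436 was not tested. The log2 fold change of Gm5436 in saline knockouts over FVB was −1.30 (SE 0.37, adjusted p = 0.16). Atp5o itself had a log2 fold change of 0.04 (SE 0.09, adjusted p = 0.92). When the copy's counts were added to Atp5o, an alternative chosen after seeing the data, the sum was lower in saline knockouts than in FVB (log2 fold change −0.39, SE 0.08, adjusted p = 0.018), the only member called in this comparison with copies added.

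The mitochondrial member with the smallest p was mt-Co3, a core subunit of complex IV from the copied stretch. It had 154, 288, 91.1 and 173 CPM in saline knockouts 1 to 4, against 81.6, 79.2, 89.98 and 103 CPM in FVB 1 to 4. Saline knockout 3 lay within the FVB range, and the log2 fold change was 1.00 (SE 0.39, adjusted p = 0.34). With its copy added it was 0.60 (SE 0.34, adjusted p = 0.55). mt-Atp8 and mt-Nd5 gave −0.20 and −0.12 (adjusted p = 0.65 and 0.73). Among cell type markers, 3 of 6 neutrophil genes rose in this comparison, with a summed level of 3.86 to 33.2 CPM in saline knockouts and 0.77 to 1.91 CPM in FVB. Of 8 interneuron genes 1 fell, and the 8 other marker lists held 0 called genes. Their part in the members' values was not tested.

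The treatment comparison set poly(I:C) knockouts against saline knockouts. Again 0 of 84 nuclear and 0 of 13 mitochondrial members changed, beside 550 genes or 2.87% of all tested (1.81% higher and 1.06% lower), and DESeq2 called 0 members. At an unadjusted p under 0.05 there were 12 nuclear members, 8 of them with a positive fold change, and 0 mitochondrial members, beside 15.5% of all genes. The median log2 fold change was −0.03 for nuclear and 0.05 for mitochondrial members, beside a value that rounds to 0 over all genes, and fold changes were positive for 29 of 84 and 9 of 13 members, beside 49.6% of all genes. With single libraries left out the medians ranged over −0.05 to 0.01 for nuclear and −0.01 to 0.10 for mitochondrial members, so their signs turned. Intervals within 1.5-fold were found for 74 of 84 nuclear and 8 of 13 mitochondrial members, beside 61.2% of all genes. Among cell type markers, 1 of 8 microglia genes rose and 2 fell, and 1 of 8 astrocyte and Bergmann glia genes and 1 of 8 oligodendrocyte genes fell. For these lists summed levels overlapped. Microglia were at 117 to 151 CPM in poly(I:C) and 117 to 145 CPM in saline knockouts. Astrocytes and Bergmann glia were at 5148 to 5620 CPM and 5473 to 6160 CPM, and oligodendrocytes at 5772 to 7705 CPM and 6165 to 6795 CPM. The 8 endothelial and mural cell markers held 0 called genes, but their sum did not overlap. It was 441 to 461 CPM in poly(I:C) knockouts and 485 to 584 CPM in saline knockouts (median log2 fold change of the markers −0.17). Their part in the members' values was not tested. By complex, the nuclear medians were −0.03, −0.09, −0.03, 0.10 and −0.05 for complexes I, II, III, IV and V.

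Groups did not overlap for 5 of 84 nuclear members, beside 9.75% of all genes. Cox6a1, a nuclear subunit of complex IV, was higher in all poly(I:C) knockouts, with a log2 fold change of 0.31 (SE 0.12, adjusted p = 0.21). Ndufa4l2 (−0.48, SE 0.17, adjusted p = 0.15), Ndufb4 of complex I (−0.20, SE 0.09, adjusted p = 0.30), and Atp5e and Atp5g3 of complex V (−0.19 and −0.15 on the log2 scale, adjusted p = 0.33 and 0.52) were lower in all of them. The nuclear member with the smallest p was Ndufa6, an accessory subunit of complex I with a LYR motif. It had 93.9, 102, 93.0 and 84 CPM in poly(I:C) knockouts 1 to 4, against 76.4, 72.2, 80.2 and 90.7 CPM in saline knockouts 1 to 4 (log2 fold change 0.22, SE 0.08, adjusted p = 0.14). Saline knockout 4 was the library that overlapped. Uqcrq, a small subunit of complex III, gave 0.22 on the log2 scale (SE 0.08, adjusted p = 0.17).

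Cox8a, Cox5a, Cox5b and Cox6a1 are nuclear subunits of complex IV, and Atp5d is the delta subunit in the central stalk of the ATP synthase. All were low in saline knockouts 1 and 2 and FVB 1. All were above their mean over all libraries in FVB 4, saline knockout 4 and poly(I:C) knockouts 1 to 4. This group was put together after its values were seen and carries no test as a group. Cox8a, the small subunit 8, had 351, 409, 384 and 340 CPM in poly(I:C) knockouts 1 to 4, 186, 218, 255 and 347 CPM in saline knockouts 1 to 4, and 243, 299, 311 and 393 CPM in FVB 1 to 4. Cox5a, a subunit on the matrix side, had 67.7, 66.8, 53.9 and 52.9 CPM in poly(I:C) knockouts, 34.2, 36.9, 38.1 and 54.5 CPM in saline knockouts, and 40.04, 50.3, 56.1 and 78.4 CPM in FVB. Saline knockouts 1 and 2 and FVB 1 were low and FVB 4 was high in both genes, so the spread ran within the saline groups as well as between groups.

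Atp5d had 168, 184, 171 and 166 CPM in poly(I:C) knockouts 1 to 4, 111, 117, 154 and 169 CPM in saline knockouts 1 to 4, and 136, 165, 151 and 174 CPM in FVB 1 to 4. Averages over the 5 genes are given as log2 deviations from the mean of all 12 libraries. They were −0.55, −0.46, −0.17 and 0.15 in saline knockouts 1 to 4 and −0.29, 0.04, 0.06 and 0.36 in FVB 1 to 4. In poly(I:C) knockouts 1 to 4 they were 0.24, 0.35, 0.16 and 0.11. The 7 other nuclear complex IV members at 20 CPM or more averaged between −0.16 and 0.12 in every library, and were at 0.01, −0.02 and −0.01 in those 3 low libraries. They are the members left after the 5 were picked, so the choice itself favours a flatter average. Atp5k and Uqcrb, with within-group SDs of 0.24 and 0.21, were not among the 5, though Atp5d and Cox6a1 had 0.20 each. The low libraries held 38723699, 39360326 and 35155420 counts, against 37484957 to 56390207 in the other 9, and the part of depth was not tested.

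The fold changes of poly(I:C) over saline knockouts were 0.56 for Cox8a (SE 0.19, adjusted p = 0.19), 0.56 for Cox5a (SE 0.21, adjusted p = 0.23), 0.48 for Cox5b (SE 0.21, adjusted p = 0.31) and 0.32 for Atp5d (SE 0.12, adjusted p = 0.20), on the log2 scale. Without saline knockout 4, Cox8a (0.76, adjusted p = 0.021), Atp5d (0.44, adjusted p = 0.036) and Ndufa6 (0.29, adjusted p = 0.034) passed, and Cox5a and Cox5b did not. With the Ttr-rich libraries left out, Cox8a was at 0.40 (adjusted p = 0.91).

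**Figure D4:**
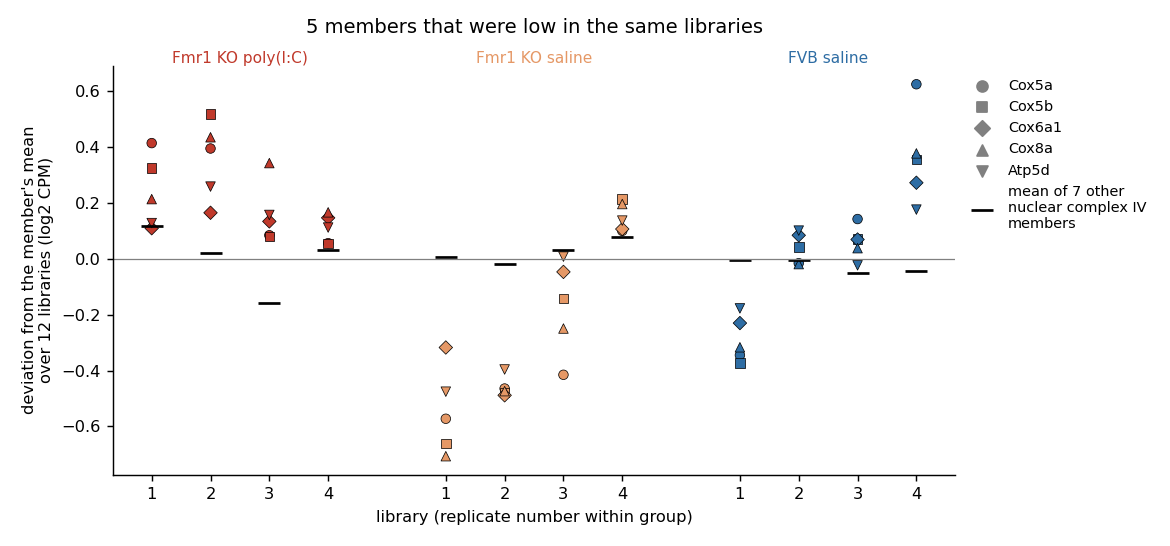
Symbols give the deviation of Cox5a, Cox5b, Cox6a1, Cox8a and Atp5d from their own mean over the 12 libraries, in log2 CPM, and black dashes the mean deviation of the 7 other nuclear complex IV members. Saline knockouts 1 and 2 and FVB 1 are low for all 5 genes while the dashes stay near 0 in these libraries. Poly(I:C) knockouts 1 to 4 lie above 0 for all 5 genes. The 7 others are those left after the 5 were picked.

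For every mitochondrial member the values of poly(I:C) and saline knockouts overlapped. mt-Nd1, a core complex I subunit of the membrane arm, had 6742, 6255, 5582 and 6276 CPM in poly(I:C) knockouts 1 to 4, against 6023, 5604, 4903 and 5860 CPM in saline knockouts 1 to 4, a log2 fold change of 0.15 (SE 0.11, adjusted p = 0.55). mt-Co1 had 21327, 20214, 19565 and 24397 CPM in poly(I:C) knockouts, against 20896, 21873, 18421 and 21207 CPM in saline knockouts (0.05, SE 0.09, adjusted p = 0.83). The 95% interval for mt-Co1 ran from −0.13 to 0.23 on the log2 scale. For mt-Nd4l, a small complex I subunit from the copied stretch, it ran from −1.53 to 0.80. mt-Atp8, a small subunit of the ATP synthase, gave 0.22 (SE 0.15, adjusted p = 0.51), and mt-Co3 gave −0.53 (SE 0.39, adjusted p = 0.59).

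Poly(I:C) knockouts were also compared with saline FVB mice. This contrast shares the FVB libraries with the genotype comparison and the poly(I:C) libraries with the treatment comparison, so it is not independent of either. Once more 0 of 84 nuclear and 0 of 13 mitochondrial members changed, beside 1352 genes or 7.05% of all tested (3.81% higher and 3.24% lower), and DESeq2 called 0 members. At an unadjusted p under 0.05 there were 7 nuclear members, 2 of them with a positive fold change, and 0 mitochondrial members, beside 21.3% of all genes. No member had groups that did not overlap, beside 14.2% of all genes. Median log2 fold changes were −0.03 for nuclear and 0.04 for mitochondrial members, beside 0.00 over all genes. Their signs turned here too, with −0.05 to 0.02 for nuclear and −0.03 to 0.17 for mitochondrial members when single libraries were left out. Fold changes were positive for 34 of 84 nuclear and 9 of 13 mitochondrial members, beside 50.2% of all genes, and intervals lay within 1.5-fold for 76 of 84 and 8 of 13, beside 59.1% of all genes.

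Among the nuclear members the smallest p belonged to Atp5a1, the alpha subunit of the ATP synthase. It averaged 1152 ± 64.0 CPM in poly(I:C) knockouts and 1301 ± 85.2 CPM in FVB (SD, n = 4 each), a log2 fold change of −0.18 (SE 0.07, adjusted p = 0.12). Uqcrc1, a core protein of complex III, gave −0.16 (SE 0.07, adjusted p = 0.18) and Cox4i2 −0.48 (SE 0.21, adjusted p = 0.18). Ndufa4l2 gave −0.39 (SE 0.17, adjusted p = 0.19). Cox8b gave 1.10 on the log2 scale (SE 0.47, adjusted p = 0.18), at means of 0.47 CPM in poly(I:C) knockouts and 0.22 CPM in FVB. Without poly(I:C) knockout 3, Uqcrh passed at 0.24 (adjusted p = 0.042), against 0.17 (SE 0.07, adjusted p = 0.19) with it. The sum of Atp5o and its copy, chosen after seeing the data, was also lower in poly(I:C) knockouts than in the same FVB libraries (log2 fold change −0.36, SE 0.08, adjusted p = 0.0098). Neither part was called alone. The copy Gm5436 was at −0.72 (SE 0.36, adjusted p = 0.30), and Atp5o was at −0.14 with DESeq2 (adjusted p = 0.43). Among cell type markers, 3 of 8 interneuron genes fell in this comparison, with a summed level of 1807 to 2172 CPM in poly(I:C) knockouts and 2210 to 2685 CPM in FVB. Of 8 genes each, 1 rose and 1 fell for oligodendrocytes and for microglia, and 1 fell for astrocytes and Bergmann glia, with summed levels that overlapped between the groups. Their part in the members' values was not tested.

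mt-Nd2, a core complex I subunit, had the smallest p of the mitochondrial members. It had 5174, 4554, 4532 and 5238 CPM in poly(I:C) knockouts 1 to 4, against 3828, 3816, 3732 and 5577 CPM in FVB 1 to 4, so FVB 4 alone exceeded the poly(I:C) libraries. The log2 fold change was 0.20 (SE 0.13, adjusted p = 0.41), and without FVB 4 it was 0.36 (adjusted p = 0.042). FVB 4 also had the largest mitochondrial share of the 12 libraries. mt-Co2 and mt-Nd3 gave −0.32 and 0.52 (adjusted p = 0.49 and 0.53).

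**Figure D5:**
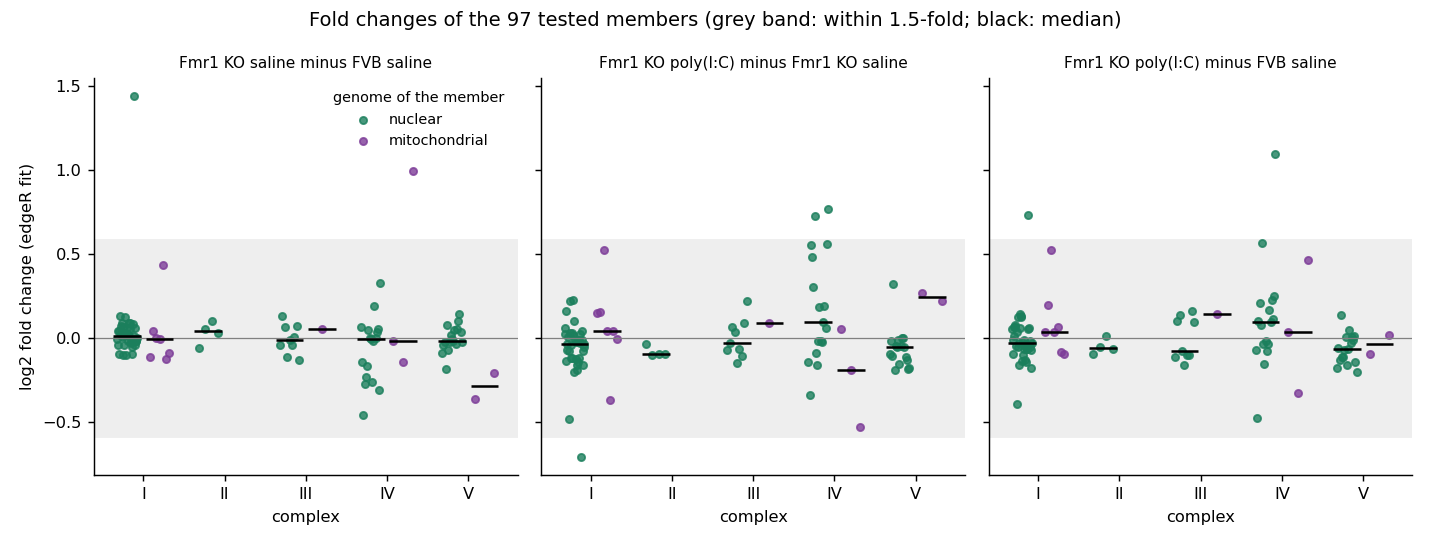
Points give the log2 fold change of the 97 tested members in the 3 comparisons, split by complex and by the genome that encodes them, with medians in black and a grey band for changes within 1.5-fold. Most members lie within the band. Among the points above it are Ndufs5 (1.44) and mt-Co3 (1.00) in the genotype comparison.

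Genes that assemble, feed or regulate the complexes were read from 17 lists chosen by function, with 267 tested genes that are no members. In the genotype comparison 3 rose and 1 fell, or 1.5%, near the 1.53% of all genes tested. Lyrm7, a chaperone that guides the Rieske protein into complex III, had 10.8, 6.92, 3.78 and 4.06 CPM in poly(I:C) knockouts 1 to 4 and 12.7, 11.4, 10.8 and 10.8 CPM in saline knockouts 1 to 4, against 4.10, 2.36, 3.83 and 3.82 CPM in FVB 1 to 4, with no overlap between the saline groups (log2 fold change 1.69, SE 0.30, adjusted p = 0.012). Uqcc1, which assists the synthesis of cytochrome b, averaged 51.7 ± 3.04 CPM in saline knockouts and 66.0 ± 4.12 CPM in FVB (−0.35, SE 0.07, adjusted p = 0.014). Mrpl55 and Mrpl14, proteins of the large mitochondrial ribosomal subunit, rose by 0.83 and 0.57 on the log2 scale (adjusted p = 0.013 and 0.020). They were 2 of 48 such proteins tested, and the median of those 48 was −0.01. Directions held for these 4 genes under all 23 alternatives. The calls held in 22 for Lyrm7 and for Uqcc1 (lost without FVB 4 and without FVB 1), 20 for Mrpl55 and 19 for Mrpl14. Leaving out FVB 1, 3 or 4 ended the call of both Mrpl genes, and leaving out saline knockout 3 that of Mrpl14.

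In the treatment comparison 2 of these 267 genes rose and 1 fell, or 1.12%, below the 2.87% of all genes tested. Cox11, a copper chaperone for complex IV, had 2.98, 5.23, 3.70 and 2.71 CPM in poly(I:C) knockouts 1 to 4, against 1.15, 1.46, 1.10 and 2.10 CPM in saline knockouts 1 to 4 (1.32, SE 0.31, adjusted p = 0.030), but 0.96 with the Ttr-rich libraries left out (adjusted p = 0.55). Its call was also lost without poly(I:C) knockout 2 or 3 or saline knockout 1, 2 or 3. Ucp2, an inner membrane carrier of the uncoupling protein family, averaged 101 ± 28.1 CPM in poly(I:C) knockouts and 59.9 ± 6.75 CPM in saline knockouts (0.76, SE 0.18, adjusted p = 0.048), a call kept in 9 of 23 alternatives and lost without any 1 library other than poly(I:C) knockouts 1 and 2. Hk2, the hexokinase that binds mitochondria, averaged 18.9 ± 3.92 CPM in poly(I:C) knockouts and 28.0 ± 1.53 CPM in saline knockouts (−0.57, SE 0.13, adjusted p = 0.029), a call kept in 18 of 23 and lost without poly(I:C) knockout 1, 3 or 4 or saline knockout 1 or 3.

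Against FVB, 3 of these 267 genes rose and 5 fell in poly(I:C) knockouts, or 3.00%, below the 7.05% of all genes tested. Uqcc1 was lower here too, at 51.6 ± 3.82 CPM in poly(I:C) knockouts and 66.0 ± 4.12 CPM in FVB (−0.35, SE 0.07, adjusted p = 0.0043), with 22 of 23 alternatives keeping the call. Pprc1 (−0.39), a coactivator related to PGC-1, the nuclear receptor Esrrg (−0.31) and the hypoxia factor Hif1a (−0.21) were the 3 of 19 biogenesis regulators that fell, with adjusted p of 0.013, 0.025 and 0.041. Of the complex I assembly factors Tmem126b rose by 0.35 and Ecsit fell by 0.28 on the log2 scale (adjusted p = 0.018 and 0.034). Ucp2 (0.83) and Slc25a27 (0.40), another carrier of the uncoupling family, rose with adjusted p of 0.018 and 0.031. Of the 23 alternatives, 20 kept the call for Pprc1 and for Tmem126b, 18 for Ucp2, 17 for Esrrg and for Slc25a27, 16 for Ecsit and 10 for Hif1a. Leaving out the 3 libraries high in Ttr ended 7 of these 8 calls, with Ucp2 the exception. With single libraries left out, the call of Uqcc1 held each time. Those of Pprc1 (poly(I:C) knockout 3 or FVB 3), Tmem126b (poly(I:C) knockout 4 or FVB 2) and Ucp2 (poly(I:C) knockout 3 or FVB 2 or 4) were lost in some, and those of Ecsit, Esrrg, Hif1a and Slc25a27 without poly(I:C) knockout 2 or 3 or FVB 4, among others. The lists for coenzyme Q, mitochondrial DNA, mitochondrial transcription, the tricarboxylic acid cycle, the outer membrane, the small ribosomal subunit and the assembly of complexes II and V held 0 called genes in all 3 comparisons.

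Of the 85 nuclear symbols, 68 had a promoter sequence of RefSeq, 250 bases before to 50 after the start site, in build GRCm38.p6. The letters GCATGCGC, a core of the binding motif of NRF1, a known activator of respiratory genes, were found on either strand in 10 of 68 (14.7%), beside 3.94% of 17492 genes. AAGATGGC, a motif of YY1, was in 10 of 68 (14.7%), beside 3.57%, and CCGGAAG, a motif of ETS factors such as GABP, in 16 of 68 (23.5%), beside 12.9%. At least 1 of these motifs was in 30 of 68 (44.1%), beside 18.7%. Each promoter was counted once per motif. The 17492 genes are all protein-coding genes with such a promoter, whether or not detected here. They were not matched to the members by level or base content. These are matches of letters, carry no test, and say nothing of binding. Of Cox5a, Cox5b, Cox6a1, Cox8a and Atp5d, the NRF1 letters were found in Cox6a1 and the ETS letters in Cox6a1 and Cox8a. None of these motifs was found for Cox5a, Cox5b or Atp5d, and a gene without a promoter sequence could give none. The NRF1 letters of Cox6a1 stand in capitals, in GRCm38.p6 at chr5:115349091-115349138 (minus strand).
Cox6a1 promoter: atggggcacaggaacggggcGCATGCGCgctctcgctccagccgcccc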

How the data were processed

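The authors deposited 1 table of raw read counts per Ensembl gene for 12 libraries of mouse cerebellum, with RNA of RIN 8 or more and a TruSeq kit, per the labels' protocols. The submitters' processing notes name Trim Galore, HISAT2, featureCounts and build GRCm39. No label states versions, the strand setting, the treatment of reads with several matches or the annotation release. The strand setting and that treatment could move counts between a gene and its copies or a gene on the other strand.

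Gene symbols came from GENCODE M21 on GRCm38 and matched 52081 of the 57010 IDs. Coordinates and sequences are GRCm38, not the authors' build. Copies were found by aligning annotated transcripts (identity of 95% or more over 150 bases or more). Genes passing edgeR's filterByExpr (minimum count 10, total 15) were scaled by TMM and fitted in 1 model of 3 groups with edgeR 4.0.16's robust quasi-likelihood test in R 4.3.3, with Benjamini-Hochberg adjustment over all 19166 genes tested and a threshold of 0.05. CPM uses TMM library sizes. Log2 CPM has a prior count of 2, with 2 exceptions. SDs of sums with copies, and of the members set beside them, used CPM plus a small constant. Deviations of Cox5a, Cox5b, Cox6a1, Cox8a and Atp5d used plain log2 CPM. Intervals are 95% intervals of the fit, and floors of 3 counts cover counting error only. The fit was tested on simulated data. Alternatives used DESeq2 1.42.0, limma 3.58.1 (voom), other scalings and filters, the replicate number as a block, and left-out libraries.

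The members and all lists were chosen with earlier results of these data known. Named members are the 5 nuclear and 3 mitochondrial ones with the smallest p in each comparison, the highest and lowest of each complex, isoform groups and all mitochondrial members. From each pathway list the called genes are named. Members and copies outside this rule (Cox5b, Atp5o, the copies, and those whose groups did not overlap) were chosen after their values were seen.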

Additional observations from a re-analysis of the deposited data

Results flagged for a closer look

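In 198 groups of 4 libraries, over 66 measures, 15 held 1 library farther from the other 3 than Dixon's criterion allows, and chance alone gives about 1 in 20.

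Of the members, Ndufs5 was at 61.0 CPM in poly(I:C) knockout 1 (the others 12.7 to 18.7) and at 17.3 CPM in saline knockout 3 (the others 51.2 to 55.2). mt-Nd3 was at 15.1 CPM in poly(I:C) knockout 3 (the others 2.91 to 4.70), and Atp5b at 1523 CPM in the same library (the others 1741 to 1770). FVB 4 was apart in 4 members. It had 5577 CPM of mt-Nd2 (the others 3732 to 3828), 1102 CPM of mt-Nd6 (725 to 770), 161 CPM of mt-Atp6 (46.5 to 59.9) and 7.08 CPM of Cox6b2 (8.39 to 8.51).

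By share of counts, the nuclear members stood at 1.33% in FVB 2 (the others all 1.24%) and the mitochondrial members at 3.89% in saline knockout 3 (the others 4.71 to 4.77%). Saline knockout 4 held 50.2 M counts (the others 38.7 M to 39.4 M), and saline knockout 2 had 4156 CPM of Ttr (the others 7.64 to 25.0). Among pathway genes, FVB 2 had 2.36 CPM of Lyrm7 (the others 3.82 to 4.09) and 21.5 CPM of Tmem126b (the others 27.9 to 28.0). Saline knockout 2 had 209 CPM of Hif1a (the others 194 to 196).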

How the results depend on the processing

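The count of all genes called in the genotype comparison was 627 with DESeq2 and 506 with no filter, and that of the treatment comparison was 971 with DESeq2. With the Ttr-rich libraries left out, 215 genes were called for treatment and 556 for poly(I:C) knockouts against FVB. Leaving out 1 library at a time gave 156 to 300 genes for genotype, 347 to 689 for treatment and 791 to 1542 for poly(I:C) knockouts against FVB. Called nuclear members then numbered 0 to 3 for treatment and 0 to 1 for poly(I:C) knockouts against FVB, and mitochondrial members 0 to 1 against FVB and 0 in the other comparisons. With copies added to the members, 1 nuclear member (Atp5o) was called for genotype and 1 (also Atp5o) for poly(I:C) knockouts against FVB.

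The labels do not say whether libraries with the same number were paired. Of 12 same-number pairs, 2 had deviations correlated above 0.1 (range −0.10 to 0.15). Poly(I:C) knockout 4 and saline knockout 3, with different numbers, reached 0.16. Correlations this weak cannot decide whether the libraries were paired. With the replicate block, 1 nuclear member, Cox8a, was called for treatment (log2 fold change 0.61, adjusted p = 0.041). Among the members named for their small p, directions of uncalled values turned in 4 cases listed here, and the cause was not tested. mt-Nd3 in poly(I:C) knockouts over FVB ranged over −0.21 to 0.78 with 1 library left out, was lowest without poly(I:C) knockout 3, and was at −0.019 without the Ttr-rich libraries. mt-Co3 for treatment was at 0.27 without those libraries, and Ndufs5 for genotype was at −0.011 with its copy added. With protein-coding counts as denominator the mitochondrial share was 4.93% in poly(I:C) knockouts, 4.65% in saline knockouts and 4.67% in FVB. For the lowest members depth sets a floor. Cox7b2 had 0 counts in saline knockout 4, which allows up to 0.060 CPM, while it reached 2.09 CPM within the saline knockouts. Saline knockout 4 held 50.2 M counts, the most of its group, and the reason for the 0 counts was not tested.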
